A study of Mus musculus with 36 samples.

Results

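CircRNAs are closed RNA circles made when a downstream splice site is joined back to an upstream one, so that a read across the head-to-tail junction counts the circle and not its linear mRNA. They are abundant in the brain, many arise from synaptic genes, and as a class they outlive linear RNA. The hippocampus is a centre of memory formation that carries its own clock, downstream of the suprachiasmatic nucleus. A single gene can give several circles from different exons, and summing the circles of a gene gives its total circular output. Here that output was compared between the dark phase, when mice are active, and the light phase, when they mostly sleep, in 18 hippocampus samples out of 36 samples in the series.

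The mice were male C57BL/6 animals (C57BL6/N in the methods) of 9 to 10 weeks, perfused to remove blood and kept under 12 h of light and 12 h of darkness. The light group held the 9 samples of ZT1, ZT5 and ZT9, and the dark group the 9 samples of ZT13, ZT17 and ZT21, with 3 replicates at each time point and ZT0 at lights on. The other 18 samples are frontal cortex at the same times. No genotype or drug was varied. Whole hippocampi were used, so that fewer cells of a type and less RNA per cell cannot be told apart. The labels do not state whether a replicate is 1 animal, and the p-values therefore measure the spread between samples.

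Of the 23734 circRNAs listed in the hippocampus, 5505 occurred in 2 or more replicates of a single time point and were kept. A circle was given to a host when both of its ends lay within one gene on the same strand in GENCODE M21, which held for 5373 circles and left 132 without a host. Both ends matched exon boundaries in 4732 of the kept circles. The hosts numbered 2362, of which 1283 had 1 kept circle and 45 had 10 or more, led by the long noncoding RNA Snhg14 with 76. Enough reads for a test were present for 618 hosts and for 582 single circRNAs, and 189 of the tested hosts had no circle that could be tested alone. Summing by host therefore added genes whose reads were spread over several rare circles.

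The circular reads on kept circRNAs were between 5722 and 59596 per sample. A pair of samples stood apart in depth, namely ZT13 replicate 1 with 5722 reads and ZT1 replicate 3 with 59596, whereas the other samples had between 14690 and 26452. Thinned to 5722 reads, the other 8 dark samples had between 1080 and 1210 hosts, and ZT13 replicate 1, which needed no thinning, had 707. Counts above 0 but below 2 do not occur in the deposited values and can arise by thinning. Thinning therefore does not equalize depth, and the low number in ZT13 replicate 1 cannot be told apart from this effect. The results that rest on either sample of extreme depth are given with and without it. The tissue was checked with circles from genes that mark hippocampal neurons. Prox1, a transcription factor of dentate granule cells, had 197 hippocampal reads and 16 from the frontal cortex. Zbtb20, which marks the hippocampal field, had 628 and 143. The tissues were less far apart for Trpc6, the member with the most hippocampal reads (701 and 463), and for Mpped1 (80 and 49). These reads are not scaled to depth. The 10 marker genes together had a median of 40.9 reads per 10000 circular reads of all circRNAs listed in hippocampus samples and 20.6 in cortex samples. Circles of the microglial marker list had no reads in any hippocampus sample. This allows up to 0.0816 reads per 10000 host reads on kept circles over the 18 samples (a limit of 3 reads, for counting error only). Per 10000 circular reads of all circRNAs listed, the lists for oligodendrocytes, astrocytes, vascular cells and choroid plexus had at most 3.84, 7.69, 1.47 and 2.99 reads in any hippocampus sample. The list for thalamus and striatum had at most 5.47 on the same scale. The neocortex list did not separate the tissues, with medians per 10000 of 16.5 (hippocampus) and 17.7 (frontal cortex), and in the hippocampus it had 16.0 ± 2.85 in the dark and 16.9 ± 6.38 in the light. Its tested members were Tshz2 and Tle4, and Rorb, Cux2, Tbr1, Lamp5, Fezf2 and Etv1 had no reads.

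The hosts that the comparison turns on are best seen through the junctions that were counted. For each circle below, the lower-case letters are the last 15 bases of the circle and the capitals the first 15, so that the change of case marks the head-to-tail join. They were read from GENCODE M21 transcripts (GRCm38), 5′ to 3′ on the strand of the host. They are shown because these circles carried most or the largest share of the reads of their hosts.
Gm26917, chr17:39844698-39844867, plus strand, within its only exon: ggccctcgttctgctGTGTGGTGGGACTGC
Odf2, chr2:29893001-29922371, plus strand, exons 4 to 18: gacctgcgcagccggATCCATCTTTTTTGT
Cntln, chr4:84971131-85006524, plus strand, exons 6 to 12: gttgatggttcaaaaGTCCTTGAAGAAAAT
Ssbp2, chr13:91524585-91564694, plus strand, exons 2 to 4: gccttccatgattatGTTAGCACTCTACGT
Pde5a, chr3:122781567-122818067, plus strand, exons 7 to 12: cagatgaaacatgagGACTCTTTCTCTCGT
St6galnac3, chr3:153411462-153411871, minus strand, exon 3: gactggaaaggacagCCTTTGCAACTGAAC
Ksr2, chr5:117500713-117505639, plus strand, exons 2 to 3: atgtgcacaaatcagAGCAAGCTGGTGAAG
Dlg1, chr16:31796866-31812824, plus strand, exons 12 to 14: gatcgcatcatatcgGTGAACAGTGTGTGT
Atxn1, chr13:45795509-45956575, minus strand, exons 2 to 4: aggcaaatggtacagAAGTATCCTGCACCG
The circles of protein-coding hosts in this set begin and end at annotated exon boundaries, and their exonic lengths run from 220 nt (Ssbp2) to 1942 nt (Odf2). The Gm26917 circle of 170 nt does neither, and 70.0% of its bases are G or C.

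Between dark and light, 1 of 618 hosts passed an adjusted p-value of 0.05 (0.162% of the hosts tested), and none of 582 single circRNAs did (edgeR quasi-likelihood test, Benjamini-Hochberg adjustment). The one host was Gm26917, an annotated lincRNA whose circular reads were higher in the dark phase. At an unadjusted p-value under 0.05 there were 31 hosts, or 5.02%, of which 11 (1.78%) were higher and 20 (3.24%) lower in the dark. The corresponding count for single circRNAs was 28, or 4.81%, with 10 (1.72%) higher and 18 (3.09%) lower. No host or circRNA had dark and light samples that did not overlap. Over all tested hosts the log2 fold change (dark minus light) was above 0 for 298 and below 0 for 320, with a median of -0.02.

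**Figure D1:**
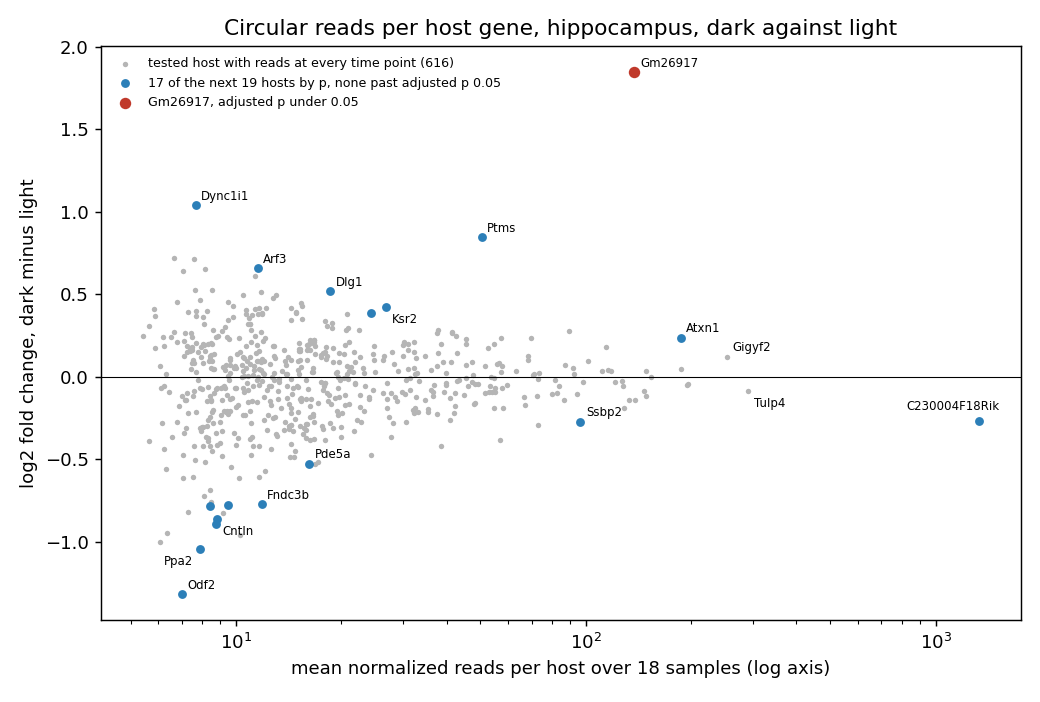
Each point is 1 of the 616 tested hosts that had reads at every hippocampal time point; the horizontal axis is the mean of its normalized circular reads over 18 hippocampus samples (log axis) and the vertical axis is the fitted log2 fold change, dark minus light. Gm26917 (red) lies at 1.85 and is the only host past an adjusted p-value of 0.05, and the 17 of the next 19 hosts by p-value that had reads at every time point are blue.

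Gm26917 lies on chromosome 17 (39843013 to 39846341 in GRCm38, plus strand) and ends 12 bases before Rn18s-rs5, which RefSeq lists as an 18S ribosomal RNA-related sequence. Ribosomal sequence is present in many near-identical copies in the genome, so that the placement of its reads is uncertain. In normalized reads (scaled to the mean library), the light samples had a lowest value of 23.3, a median of 31.3 and a highest value of 221, and the dark samples 21.6, 196 and 671. Most dark samples were thus above most light samples, but ZT5 replicate 2 of the light group was high, and ZT17 replicates 1 and 2 of the dark group were low at 21.6 and 37.8. The log2 fold change was 1.85 (SE 0.37, adjusted p = 0.0200, n = 9 per phase, edgeR), with means of 220 ± 187 (SD) in the dark and 55.4 ± 63.4 in the light. The call was lost without both samples of extreme depth (1.60, adjusted p = 0.210), with DESeq2 (1.88, adjusted p = 0.105), when one mean was fitted per phase (1.98, adjusted p = 0.0688), and when all circRNAs listed were summed (1.50, adjusted p = 0.0710). Leaving out single samples gave adjusted p-values from 1.74e-05 to 0.149, and the call was lost without ZT1 replicate 1, 2 or 3, ZT9 replicate 2 or 3, ZT13 replicate 1 or ZT17 replicate 3. In these 7 fits the log2 fold change was 1.34 without ZT17 replicate 3 and between 1.62 and 1.88 in the others.

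The reads of Gm26917 came from 9 kept circles, none of which had an end on an exon boundary. One of them, the circle of 170 nt printed above, held 1328 of 1959 reads, or 67.8%. It was present in 1 light sample with 194 reads (ZT5 replicate 2) and in 7 dark samples with 183, 187 and 120 reads at ZT13, 153 at ZT17 replicate 3, and 146, 171 and 174 at ZT21. It had no reads in the other 10 samples. No sample lay in between, since the lowest count above 0 was 120. Per 10000 host reads, it had 92.5 ± 94.1 in the dark and 10.7 ± 32.0 in the light (n = 9 per phase). This difference is part of the one called for the host and is given as a description. Tested alone with edgeR it had an adjusted p of 0.0684, and no fold is given because all ZT1 and ZT9 samples were at 0. The other 8 circles summed to 22.5 ± 17.1 per 10000 in the dark and 16.4 ± 7.12 in the light (p = 0.415, exact permutation test, two-sided), and differed by less than the spread. In the frontal cortex the same circle had 689 reads in 6 of 18 samples, 3 light and 3 dark, again with no low counts (the lowest above 0 was 75). In the transcript sequence, each of the 9 circles starts just after AG and ends just before GT, the bases found at splice junctions. All 9 had passed the circRNA caller (CIRI2), and whether its calling selects for these bases was not tested. The bases are therefore no separate evidence of splicing. At both ends of the leading circle the bases match over 4 positions.

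Presence in some samples and complete absence in others was shared by a few other circles. Of 582 tested circRNAs, 7 were found in at most 9 of 18 samples. The circle of Nell2 (chr15:95296159-95346887, exons 14 to 16), a secreted neuronal glycoprotein, had 2779 reads in 4 light and 4 dark samples, with at least 286 in each, and none in the other 10. The other circles of Nell2 together had between 13 and 75 reads in every sample, and for the host the log2 fold change was 0.05 (SE 0.63, adjusted p = 0.981). In the frontal cortex the Nell2 circle had 765 reads in 3 of 18 samples. The remaining 5 circles had between 82 and 130 reads, and came from Nrgn, Malat1, Ptms, Gm26917 and a locus without a host. The files hold called circles, and whether a circle listed at 0 had junction reads that were not called was not tested. The Nell2 and Gm26917 circles were both either absent or high, but that of Gm26917 lay in 7 dark and 1 light samples and that of Nell2 in 4 of each.

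**Figure D2:**
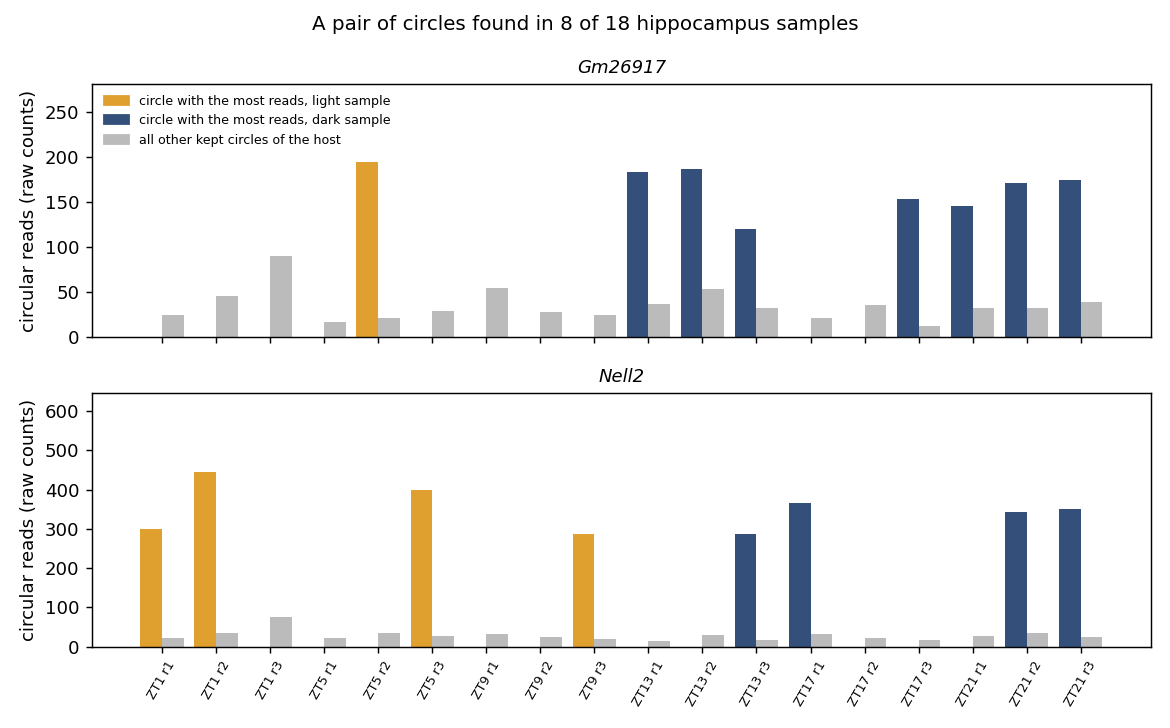
Raw circular read counts in each of 18 hippocampus samples (ZT and replicate on the horizontal axis) for the circle with the most reads of Gm26917 and of Nell2 (orange, light; blue, dark) and for all other kept circles of the same host (grey). The Gm26917 circle is in 1 light and 7 dark samples and the Nell2 circle in 4 and 4, each with no low counts, whereas the grey bars are present in every sample.

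After Gm26917, the 19 hosts with the smallest p-values had adjusted p-values from 0.376 to 0.733. They are described by their values, and none of them is called changed. In the 20 hosts including Gm26917, 8 were higher and 12 lower in the dark. For 14 of the 20 the circle with the most reads could be tested alone, and its log2 fold change had the sign of the host in 14 of 14, its reads being part of the host's sum.

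Odf2 encodes a protein of the centriolar appendages, and its circles had the second smallest p-value. Odf2 had normalized reads of 4.91 (lowest), 9.32 (median) and 17.4 (highest) in the light and 0, 4.03 and 6.43 in the dark. All dark samples were below the light median, and the 0 was in ZT13 replicate 1. The log2 fold change was -1.32 (SE 0.36, adjusted p = 0.376), and without both samples of extreme depth it was -1.16 with an adjusted p of 0.832. Cntln encodes centlein, which links centrioles. It had 4.66, 11.2 and 17.8 normalized reads in the light and 3.02, 7.05 and 8.22 in the dark, with every dark sample below the light median (log2 fold change -0.86, SE 0.31, adjusted p = 0.733). Dync1i1, a cytoplasmic dynein intermediate chain, had 0, 4.66 and 12.4 normalized reads in the light and 4.48, 8.65 and 16.8 in the dark (1.04, SE 0.41, adjusted p = 0.733).

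Ksr2 is a scaffold of the Ras-MAPK cascade. It had 16.8, 23.3 and 28.0 normalized reads (lowest, median, highest) in the light and 20.5, 28.5 and 51.8 in the dark, and the highest values, 51.8 and 42.3, were both at ZT13. The log2 fold change of Ksr2 was 0.42 (SE 0.16, adjusted p = 0.733). Pde5a, the phosphodiesterase that degrades cGMP, had 12.8, 18.5 and 32.4 normalized reads in the light and 6.10, 12.3 and 19.1 in the dark (-0.53, SE 0.22). Arf3, a small GTPase of the Golgi, had 4.11, 11.2 and 14.3 in the light and 5.64, 14.7 and 18.3 in the dark (0.66, SE 0.26). Nr3c2 encodes the mineralocorticoid receptor, which is abundant in the hippocampus. Its values were 4.91, 11.2 and 21.9 in the light and 1.84, 6.16 and 15.5 in the dark, where the means were 13.3 at ZT13 and 2.71 at ZT21, a difference that did not pass the test within the dark phase (adjusted p of at least 0.367 for every host).

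Some hosts were low enough for single samples to weigh on them. Pknox2, a homeobox gene, had reads in 14 of 18 samples and none at ZT13. Because all ZT13 samples were at 0, its fold change is not given. Ppa2, the mitochondrial pyrophosphatase, had 0, 10.7 and 17.7 normalized reads in the light and 0, 5.73 and 8.40 in the dark (-1.04, SE 0.42). Fndc3b had 10.3, 15.1 and 22.6 in the light and 0, 8.05 and 14.1 in the dark (-0.77, SE 0.29), with the 9 dark samples all below the light median. Mbtd1, a reader of methylated histones, had 7.19, 11.2 and 16.1 in the light and 0, 6.10 and 12.1 in the dark (-0.89, SE 0.34, and -1.46 without ZT17 replicate 3).

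The sialyltransferase St6galnac3 had 4.11, 11.8 and 14.8 normalized reads in the light and 2.82, 6.69 and 9.15 in the dark (-0.78, SE 0.32, adjusted p = 0.733). Its single-exon circle of 410 nt held 96.9% of the reads and ranked second among single circRNAs, with a log2 fold change of -0.97 (SE 0.30, adjusted p = 0.703). The other single circRNAs among the 8 smallest p-values, beside those of Gm26917, Odf2, Pde5a and Cntln, came from Smarca1 (-0.93, SE 0.30), a nucleosome-remodelling ATPase, Fut8 (-0.72, SE 0.24), the core fucosyltransferase, and Tle4 (-1.23, SE 0.46), a transcriptional co-repressor. Their adjusted p-values were between 0.703 and 0.925, and the dark samples of each reached down to 0. The Tle4 circle had reads in 1 sample each of ZT13 and ZT21, and without either of them the fitted value was as low as -2.85, with the remaining samples of that time point at 0.

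**Figure D3:**
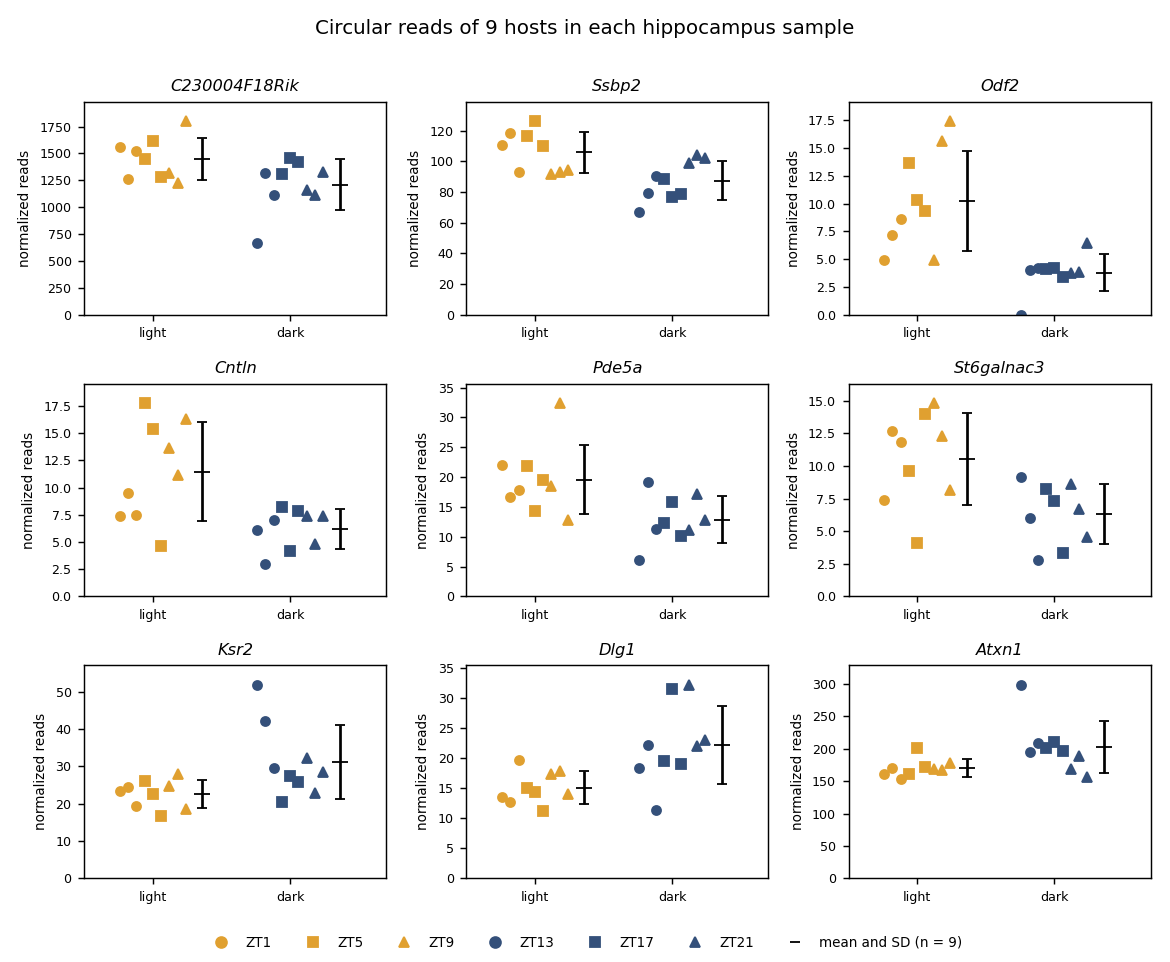
Normalized circular reads of 9 hosts (vertical axes, from 0) in each hippocampus sample of the light (orange) and dark (blue) phase, with symbols for the ZT and black bars for the mean and SD (n = 9). The phases overlap in each panel; for Odf2 the light mean is 10.2 and the dark mean 3.76, and ZT13 replicate 1 is the lowest dark sample for C230004F18Rik at 665 and the highest for Atxn1 at 299.

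Hosts with many reads allow the smallest differences to be seen. C230004F18Rik is the gene whose exon forms Cdr1as (chrX:61183248-61186174, exon 6 of 7), the circle known for its miR-7 sites. It had 24603 reads, 99.2% of them from that circle. It had normalized reads of 1222, 1446 and 1802 (lowest, median, highest) in the light and 665, 1311 and 1456 in the dark. The log2 fold change was -0.27 (SE 0.09, adjusted p = 0.733), or -0.19 without both samples of extreme depth. Ssbp2, an adaptor of LIM-homeodomain complexes, had 91.5, 110 and 126 in the light and 67.1, 88.3 and 104 in the dark, with all dark samples below the light median (-0.27, SE 0.10, adjusted p = 0.733). Ssbp2 at ZT21 was as high as at ZT9, with means of 102 and 92.8. Atxn1, which encodes ataxin-1, had 154, 169 and 201 in the light and 157, 197 and 299 in the dark (0.24, SE 0.10, adjusted p = 0.733), and the log2 fold change was 0.15 without both samples of extreme depth. Fam53b had 13.7, 20.1 and 27.7 in the light, and in the dark a median of 24.8 and a highest value of 45.7, all dark samples being above the light median (0.39, SE 0.16).

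Further hosts among the 10 with the most reads lay close to 0. The log2 fold change was -0.09 (SE 0.10) for Tulp4, 0.12 (SE 0.08) for Gigyf2, a translational repressor, and -0.05 (SE 0.10) for Rims1, a scaffold of the presynaptic active zone. It was -0.04 (SE 0.09) for the sodium-calcium exchanger Slc8a1, 9.41e-05 (SE 0.12) for the ubiquitin ligase Ankib1 and -0.12 (SE 0.10) for Dtnb. Each of these 6 hosts had an adjusted p-value of at least 0.948.

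By function, none of the gene lists held a member past the adjusted threshold, and the share of members under an unadjusted p-value of 0.05 was to be read against 5.02% of all hosts. Of the core clock list (21 genes), 11 had any circle and only Npas2, a partner of BMAL1, had enough reads for a test, with a log2 fold change of 0.21 (SE 0.40, between -0.03 and 0.36 in the 16 fits without a single sample that tested it) and means of 7.38 ± 4.43 in the dark and 6.83 ± 3.27 in the light. Per1, Per2, Nr1d1 and Nr1d2, whose mRNAs cycle strongly in most tissues, had no circle. Of 20 clock kinases and turnover genes, 14 had a circle and none could be tested. Among 22 activity-induced genes, 4 had any circle and Homer1, a scaffold of glutamate receptors, was tested at 0.04 (SE 0.21). Fos, Egr1, Arc and Npas4 had no circle.

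Of the presynaptic active zone list, 9 hosts were tested, with 2 above and 7 below 0, a median of -0.07 and no unadjusted p under 0.05. Rims2 was at -0.17 (SE 0.13) and Erc2 at -0.07 (SE 0.12). Of 11 tested postsynaptic scaffolds, 4 were above and 7 below 0 (median -0.03), and 2 had an unadjusted p under 0.05, both higher in the dark. Dlg1, which encodes SAP97, a scaffold that carries AMPA receptors, had normalized reads of 11.2, 14.4 and 19.7 in the light and 11.3, 22.0 and 32.1 in the dark (0.52, SE 0.20, adjusted p = 0.733), and 8 of 9 dark samples were above the light median. Psd3, an exchange factor for ARF6, had 26.7, 33.1 and 42.0 in the light and 27.6, 44.5 and 47.9 in the dark (0.28, SE 0.14, adjusted p = 0.948). Anks1b was at -0.03 (SE 0.10) and Dlgap1 at -0.10 (SE 0.22).

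Receptors, adhesion molecules and channels had no member with an unadjusted p under 0.05. The medians were -0.15 for 5 glutamate receptors (Grm5 -0.15, SE 0.17; Grin2b -0.17, SE 0.21), 0.16 for 2 GABA receptors, -0.10 for 13 synaptic adhesion genes and -0.04 for 15 ion channels and exchangers. RNA-binding and splicing regulators (9 tested) had a median of 0.18 and kinases (6 tested) of -0.01, and none of these hosts passed either. The ubiquitin list had 2 of 9 hosts above 0 and a median of -0.14. Among 14 chromatin regulators the median was -0.14 and Kmt2c, a histone H3K4 methyltransferase, had an unadjusted p under 0.05 (-0.95, SE 0.44, adjusted p = 0.917). Kmt2c was also low at ZT13 (mean 1.01) and ZT21 (3.32), but not at ZT17 (10.7). Its ZT13 reads were all in replicate 2, and without that sample the fitted value was -2.16, with the remaining ZT13 samples at 0. Of the 24 well-studied circRNA hosts 21 were tested, of which 8 were above and 13 below 0 with a median of -0.06, and C230004F18Rik and Ssbp2 were the 2 with an unadjusted p under 0.05. The 3 tested markers of hippocampal neurons, Trpc6 (0.02, SE 0.14), Zbtb20 (0.12, SE 0.16) and Prox1 (0.19, SE 0.31), did not pass. Of the 2 tested neocortex markers, Tle4 had an unadjusted p under 0.05, with 13.6 ± 6.56 normalized reads in the light and 6.91 ± 5.45 in the dark (-0.96, SE 0.43, adjusted p = 0.917), and Tshz2 was at 0.21 (SE 0.19). Without ZT21 replicate 2, the only ZT21 sample with Tle4 reads, its fitted value was -2.65. The part of neighbouring cortex in the other results was not tested.

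**Figure D4:**
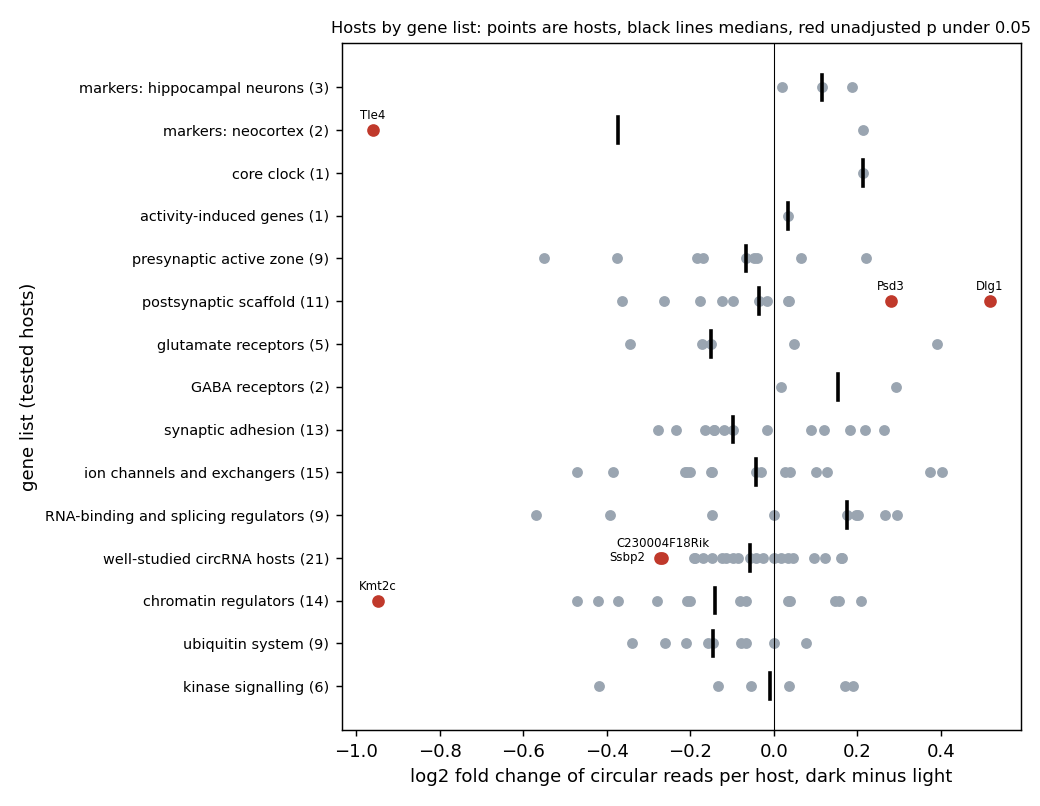
Log2 fold change of circular reads per host, dark minus light (horizontal axis), for the tested members of each gene list (number in parentheses), with black lines for the medians and red points for hosts with an unadjusted p under 0.05. None of the points passes the adjusted threshold; the list medians lie between -0.37 (neocortex markers, 2 hosts) and 0.21 (core clock, 1 host).

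Whether circles of one host moved together was examined in 94 hosts with at least 2 tested circRNAs. In 42 of these, all tested circles had log2 fold changes on the same side of 0. Among the 65 hosts with exactly 2 tested circles, both were on one side in 37. Independent signs would put both circles on one side in about 1 in 2 such hosts, and the count was not tested against this. The median range of the log2 fold changes within a host was 0.30. A test of circle usage, which asks whether the share of each circle in its host differs between the phases, called none of 94 hosts, with 2.13% at an unadjusted p under 0.05 (diffSpliceDGE in edgeR). Gm26917 came closest (adjusted p = 0.0593), its leading circle being high in the dark while the other circles differed by less than their spread. It passed when any one of 8 samples was left out (ZT1 replicate 1, ZT5 replicate 1 or 2, ZT9 replicate 1 or 2, ZT17 replicate 1 or 2, or ZT21 replicate 1), with adjusted p-values from 0.000380 to 0.0491. When any of the other 10 samples was left out it did not pass, with adjusted p-values from 0.0518 to 0.978 (the highest without ZT17 replicate 3), and the adjusted p was 0.509 without both samples of extreme depth. Fmn2, a formin that assembles actin filaments, had an adjusted p of 0.976.

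A comparison of phases averages over 3 time points each, and the time points within a phase were therefore compared too. Within the light phase no host of 618 passed (18 with an unadjusted p under 0.05, 2.91%; edgeR), and DESeq2 called 1. Snhg14, a long noncoding RNA of the imprinted Prader-Willi region, had the smallest p. It had normalized reads of 129, 122 and 113 at ZT1, 60.2, 87.3 and 84.8 at ZT5 and 33.4, 34.7 and 75.6 at ZT9. All ZT1 samples were above all ZT5 and ZT9 samples (adjusted p = 0.226 with edgeR and 0.0183 with DESeq2, and 0.0124 with edgeR without ZT9 replicate 3). In the dark, Snhg14 had means of 75.4, 68.9 and 46.1 at ZT13, ZT17 and ZT21. Arf3 (means 13.1, 4.29 and 10.4 at ZT1, ZT5 and ZT9) and Mcph1, a centrosomal protein (30.5, 18.4 and 33.4), followed, both with an adjusted p of 0.998.

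Within the dark phase no host passed either (41 with an unadjusted p under 0.05, 6.63%; edgeR). Fbxw4, an F-box protein, had 21.3, 20.1 and 11.3 normalized reads at ZT13, 10.3, 17.9 and 12.3 at ZT17 and 32.1, 29.6 and 34.0 at ZT21, the last being above all other samples of either phase (adjusted p = 0.367). Tasp1, a protease that cleaves MLL proteins, and Ptms, which encodes parathymosin, had the next p-values. For both, ZT13 replicate 1 stood apart, at 223 for Tasp1 against 57.8 to 100 in the other dark samples, and at 296 for Ptms against 8.27 to 65.4. For dark against light, Ptms had a log2 fold change of 0.84 (SE 0.33, adjusted p = 0.733), but 0.50 without ZT13 replicate 1 and 1.22 without ZT1 replicate 3; it was 0.87 without both.

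The same contrast in the frontal cortex was fitted together with the hippocampus, and 718 hosts were tested for a difference between the tissues. None passed an adjusted p-value of 0.05, and 5.71% had an unadjusted p under 0.05 (edgeR). The dark against light differences had the same sign in both tissues for 331 of 718 hosts, or 46.1%. Of the 20 hosts with the smallest p in the hippocampus, which were chosen without the cortex, 7 had the same sign in the cortex and 13 the opposite sign. The smallest p for a difference between tissues was that of Ssbp2, with a log2 fold change of -0.28 (SE 0.11) in the hippocampus and 0.22 (SE 0.11) in the cortex, a difference of -0.51 (SE 0.15, adjusted p = 0.661). Ppa2 was at -1.08 (SE 0.46) and 1.13 (SE 0.50), and Kmt2c at -0.95 (SE 0.42) and 0.81 (SE 0.37), with the same adjusted p. Arf3 was at 0.65 (SE 0.29) and 0.68 (SE 0.28), and C230004F18Rik at -0.27 (SE 0.17) and -0.17 (SE 0.17), so that both were on the same side in the tissues. Gm26917 was at 1.78 (SE 0.47) and -0.11 (SE 0.56), a difference of 1.88 (SE 0.75, adjusted p = 0.723) that did not pass.

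**Figure D5:**
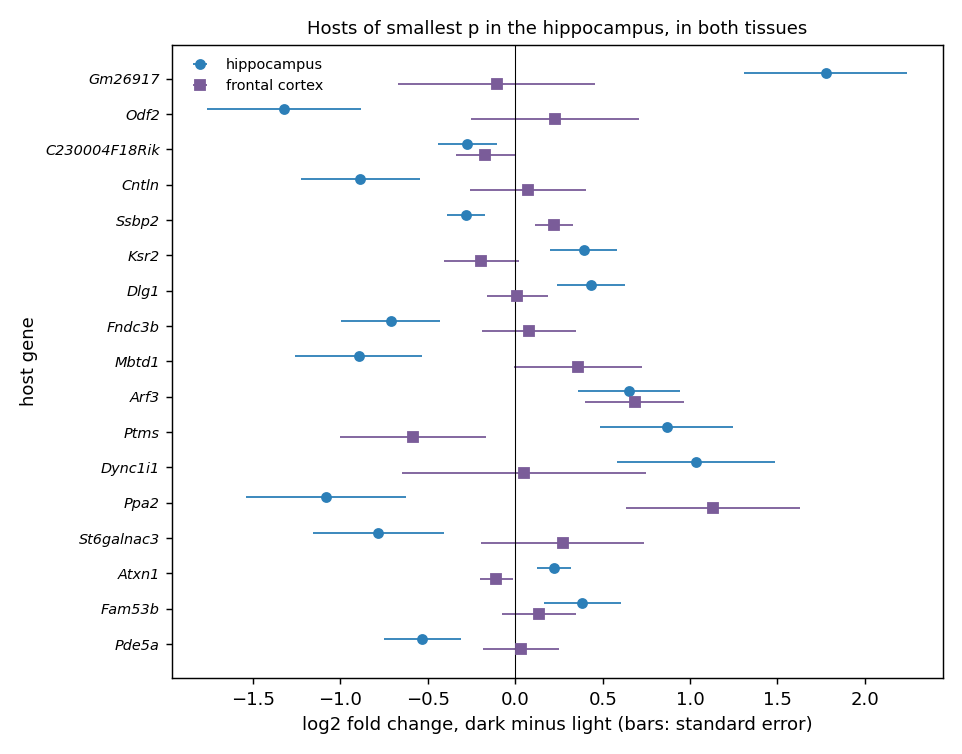
Log2 fold change, dark minus light, with its standard error, of 17 of the 20 hosts with the smallest p in the hippocampus (circles, hippocampus, and squares, frontal cortex). Hosts without reads at a hippocampal time point were left out, and so was Nr3c2. The hippocampal values were used to choose the hosts and the cortical values were not; Arf3 (0.65 and 0.68) and C230004F18Rik (-0.27 and -0.17) are on the same side and Ssbp2 (-0.28 and 0.22) and Ppa2 (-1.08 and 1.13) on opposite sides.

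At the level of whole samples, the total circular reads on kept circRNAs were 17783 ± 5194 in the dark and 23690 ± 13932 in the light, a difference of -24.9% that was smaller than the spread (p = 0.284, exact permutation test, two-sided, n = 9 per phase). The totals were not scaled to sequencing depth. Thinned to 5722 reads, the samples had 1112 ± 156 hosts in the dark and 1175 ± 62.0 in the light (p = 0.321, exact permutation test) and 1826 ± 300 and 1957 ± 145 circRNAs (p = 0.293, exact permutation test). All of these differences rested on the extreme samples, and without both they were 0.46% for the totals, 1.84 hosts and 2.44 circRNAs, each slightly higher in the dark. Thinned numbers still followed the original depth, for example 1287 hosts in ZT1 replicate 3 (59596 reads) and 1094.5 in ZT5 replicate 1 (14690 reads). The tests of hosts and circRNAs found therefore do not separate phase from depth.

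Of 8 classes of circular reads, none differed after adjustment over the classes. Circles of 1 exon took 15.0% ± 0.642 of the reads in the dark and 16.0% ± 0.847 in the light (p = 0.0149, adjusted p = 0.119, exact permutation test, two-sided). C230004F18Rik, whose circle is a single exon, took 5.92% ± 1.00 and 6.96% ± 0.860 of the reads, and without it the single-exon share was 9.71% ± 0.737 and 9.77% ± 0.292 (p = 0.859, exact permutation test). Circles in the ribosomal repeat region or on unplaced sequence took 1.56% ± 1.09 in the dark and 0.749% ± 0.320 in the light (p = 0.0324, adjusted p = 0.129, exact permutation test), and this class holds the Gm26917 circle. The share of reads from protein-coding hosts was 89.2% ± 0.884 and 88.8% ± 1.02, and the 10 hosts with the most reads took 14.6% ± 1.06 and 15.4% ± 1.12 (adjusted p = 0.495 and 0.327, exact permutation tests).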

How the data were processed

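Total RNA depleted of ribosomal RNA was sequenced from hippocampus and frontal cortex. The authors mapped the reads to GRCm38 with BWA, called circRNAs with CIRI2 at its defaults and deposited, for every circle and sample, counts of circular reads, which are not normalized and whose smallest value above 0 is 2. The deposited hippocampus table has 1 further column of per-sample values that was not used. Linear counts were not used here, so that host transcription and circularization cannot be told apart.

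Circles that occurred in 2 or more replicates of a single time point were kept, as in the study, and summed per host (GENCODE M21). Where several genes held both ends (98 circles), the gene with most ends on exon boundaries was taken, then a protein-coding gene, then the shortest. The host counts were analysed in edgeR 4.0.16 (R 4.3.3; TMM, default filter on low counts, quasi-likelihood test, Benjamini-Hochberg adjustment, threshold 0.05), with one mean per time point, the contrast being the mean of ZT13, ZT17 and ZT21 minus that of ZT1, ZT5 and ZT9. Because TMM used circular reads only, a shift common to all circles is not visible. Tissues were compared by an interaction in 36 samples. Sample values were compared by exact permutation tests of 9 against 9 samples, which can give p-values as small as 4.11e-05, and thinning used 20 draws. Errors are SD unless called SE, the standard error from the fit. DESeq2 1.42.0, scipy 1.17.1, numpy 2.4.6, pandas 2.3.3 and Python 3.11.15 were also used, and the tests were tested on simulated data.

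The text names hosts past the threshold, the 20 hosts and 8 circRNAs of smallest p, the 10 hosts with the most reads, up to 4 tested members with the most reads per list, and up to 3 hosts per further test; 2 of these hosts are not reported here. The members of lists with an unadjusted p under 0.05 and the circles found in at most 9 samples were chosen after their values were seen. The comparison and the gene lists were chosen with earlier results of these data known.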

Additional observations from a re-analysis of the deposited data

Results flagged for a closer look

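In groups of 9 samples, 90 groups of values were searched for a sample far from the others, and 21 were flagged, where chance flags about 1 in 20. ZT13 replicate 1 of the dark phase was the sample in 13 of them. It had 5722 circular reads (others 14710 to 22429). Unthinned, it had 707 hosts and 1049 circRNAs, against 1763 to 1998 circRNAs in the others after thinning, which does not equalize depth. Circles with both ends on exon boundaries took 86.6% of its reads (others 90.3% to 91.8%) and circles spanning over 100 kb took 4.23%. In normalized reads it was the highest dark sample for Gm26917 (671), Ptms (296), Atxn1 (299), Fam53b (45.7) and Tasp1 (223), and the lowest for Odf2 (0), C230004F18Rik (665) and Dtnb (101). Its low depth cannot be told apart from these differences in its make-up for hosts with few reads.

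In the light phase, ZT1 replicate 3 had 59596 circular reads (others 14690 to 26452). ZT5 replicate 2 had 1.55% of its reads in the ribosomal repeat region or on unplaced sequence (others 0.510% to 0.800%), with 221 normalized reads for Gm26917 (others 23.3 to 68.0) and 201 for Atxn1. Nr3c2 had 21.9 normalized reads in ZT5 replicate 1 and Pde5a 32.4 in ZT9 replicate 2. In the dark phase, 2.49% of the reads of ZT13 replicate 2 had no host on the same strand (others 0.899% to 1.69%), and Slc8a1 had 228 normalized reads in ZT13 replicate 3.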

How the results depend on the processing

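With the dark against light contrast, the count of called hosts was 1 and became 3 without the filter on low counts (Gm26917, Ptms and C230004F18Rik, of 2362 hosts, with 152 at an unadjusted p under 0.05). It was 0 when all circRNAs listed were summed, with one mean per phase, with DESeq2, without both samples of extreme depth (chosen after seeing the data) and, by construction, without ribosomal-repeat and unplaced circles, which include Gm26917. At an unadjusted p under 0.05 these 5 settings had between 14 and 31 hosts. Without the filter, the counts were 3 within the light phase, 2 within the dark phase, 4 for circRNAs, 1 for circle usage and 2 for phase by tissue, each against 0. DESeq2 called 1 within the light phase (Snhg14), and scaling to total circular reads 1 circRNA (that of Gm26917). Leaving out single samples gave 0 to 1 hosts, 0 to 1 within the light phase (1 without ZT9 replicate 3), 0 to 1 circRNAs (1 without ZT5 replicate 2, ZT17 replicate 1 or ZT17 replicate 2) and 0 to 1 for circle usage. The share of 1-exon circles then differed by between -1.13 and -0.79 percentage points and passed without ZT5 replicate 3 or ZT17 replicate 2, and that of ribosomal-repeat or unplaced circles differed by between 0.529 and 0.972 and passed without ZT17 replicate 2. Without both samples of extreme depth, total reads (0.46%) and the hosts (1.84) and circRNAs (2.44) found after thinning were slightly higher in the dark instead of lower. The cause was not tested for any of these.

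With the replicate number as a block, 1 host was called (Gm26917, adjusted p = 0.0383) with 29 at an unadjusted p under 0.05, no other count moved, circle usage of Gm26917 had an adjusted p of 0.268, and the total differed by -24.9% as without it. Samples with the same number showed little common deviation (mean correlation 0.0113, and -0.0054 between different numbers). Of 18 samples, 9 were closest to their own number among the 3 numbers. The labels give only the number, and whether it stands for a shared batch or day was not tested.

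Depth limits these comparisons. Of 2362 hosts, 618 had enough reads, and a host at 5 to 10 normalized reads rests on few reads in a sample, or on 0, in the shallowest library. Lists of clock and activity-induced genes rest on 1 tested host each.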
